A study of Mus musculus with 4 samples.

Results

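Genes of fatty acid and cholesterol metabolism were examined in whole lungs of mouse embryos at embryonic day (E) 16.5, with and without Stk11 in the lung epithelium. The set held 44 genes, chosen by gene symbol from textbook roles in fatty acid synthesis and oxidation, acyl-CoA oxidation and cholesterol synthesis, and all 44 had a row among the 22556 genes of the table. Expression was measured by RNA sequencing and is given as FPKM, that is, fragments scaled to transcript length and to sequencing depth, so that levels can be compared between genes. The 2 Control libraries came from embryos with the Shh-Cre driver and 1 floxed and 1 intact Stk11 allele (Shh-Cre; Stk11F/+). The 2 Shh-Stk11 libraries came from embryos with the same driver and both alleles floxed (Shh-Cre; Stk11F/F). Shh-Cre acts in the endoderm from which the lung epithelium arises, so mesenchyme, vessels and blood kept Stk11. All 4 libraries came from embryos with Cre, and whether a library held 1 embryo or a pool was not given. The labels name C57BL/6 as the strain, but mixed backgrounds are given in the methods, and litter and sex were not labelled.

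Stk11, the deleted gene, fell from 43.99 and 45.5 FPKM in the Control libraries to 29.5 and 26.0 FPKM in the Shh-Stk11 libraries (limma adjusted p 0.0499). The sexes were not balanced, since Ddx3y, a Y-linked gene, reached 23.5 FPKM in Shh-Stk11 2 alone and 0.0285 FPKM or less elsewhere. Epithelial marker genes such as Epcam and Nkx2-1 were present in every library, with a summed level of 8 such genes between 1088 and 1385 FPKM. The depth recovered from the steps between low values was 30.8 to 37.96 M reads per library. In a limma fit over the 13770 genes that averaged 0.5 FPKM or more, 313 (2.27%) passed an adjusted p of 0.05.

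Fatty acids are built in the cytosol from acetyl-CoA, which ATP citrate lyase supplies, acetyl-CoA carboxylase turns into malonyl-CoA and fatty acid synthase condenses into palmitate. Elongases and desaturases then modify the chain, and the SREBP transcription factors, held back by INSIG proteins and escorted by SCAP, drive the genes of both fatty acid and sterol synthesis. STK11 activates AMPK, which is known to phosphorylate acetyl-CoA carboxylase and thereby to relieve the block that malonyl-CoA places on carnitine palmitoyltransferase 1, the gate of mitochondrial oxidation. In the fetal lung, fatty acids are needed for the phospholipids of surfactant.

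Most of these genes did not pass the test between the genotypes. Of the 43 members tested, 1 passed the adjusted threshold, Acoxl, which was lower in Shh-Stk11 lungs, against 2.27% of all genes tested in either direction 1.29% that were lower and 0.98% that were higher. At an unadjusted p of 0.05 there were 7 members, 4 higher and 3 lower, or 16.3% of those tested, where 15.2% of all genes reached it. Both shares lay near the background. The median log2 fold change of the members was 0.07, beside -0.05 over all genes tested, and lay between -0.0084 and 0.044 when 1 library was left out. Both Shh-Stk11 values lay outside the range of the Controls on the same side for 15 members (34.9%), 9 above and 6 below, whereas this held for 46.8% of all genes tested, 19.2% above and 27.6% below. The 95% interval of the log2 fold change stayed between -1 and 1 for 37 members, and between -0.5 and 0.5 for 17 of them. The 6 genes with wider intervals were Scd1, Elovl6, Dhcr7, Acox2, Acoxl and Acsl4.

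**Figure D1:**
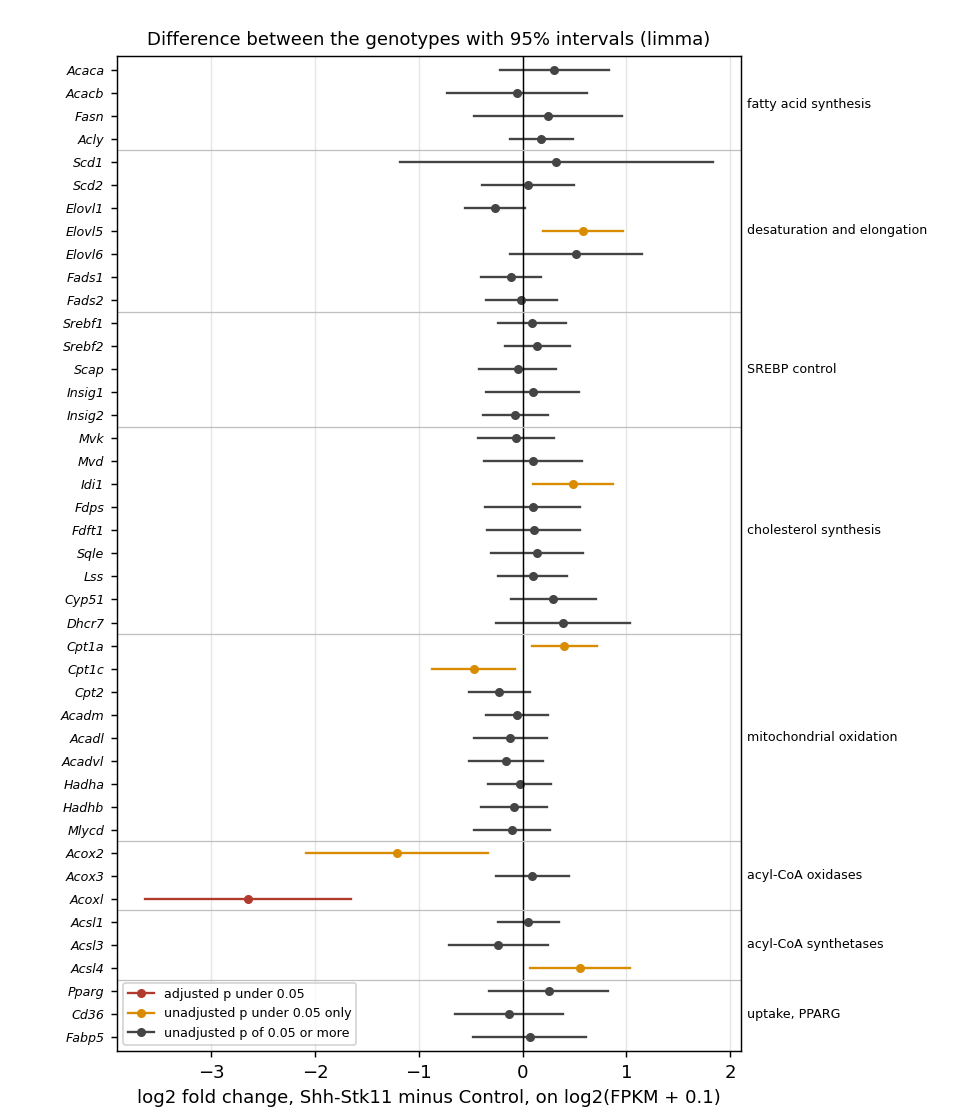
Difference between the genotypes for the 43 members tested, ordered by role. The horizontal axis is the log2 fold change (Shh-Stk11 minus Control, on log2(FPKM + 0.1)), points are limma estimates from 2 libraries per genotype and bars are 95% intervals. Acoxl, at -2.64, is the member past the adjusted threshold, and 36 of the other bars cross 0.

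The acyl-CoA oxidases held both of the largest differences. These enzymes carry out the first step of peroxisomal beta-oxidation, and Acoxl encodes an acyl-CoA oxidase-like protein whose substrate is poorly defined. Control 1 held 3.69 FPKM of Acoxl and Control 2 held 1.60 FPKM, while the Shh-Stk11 libraries held 0.329 and 0.283 FPKM. Both Shh-Stk11 libraries were below both Controls, but the Controls themselves differed by 2.31-fold. The mean fell from 2.64 ± 1.48 to 0.306 ± 0.0327 FPKM (SD, n = 2), a log2 fold change of -2.64 (SE 0.412, 95% interval -3.63 to -1.65, limma adjusted p 0.0335). Acoxl passed the filter of a mean of 0.5 FPKM only through the Controls, since both Shh-Stk11 values lay below 0.5 FPKM. About 370 and 133 reads were behind the Control values and 26.8 and 24.8 reads behind the Shh-Stk11 values. Acoxl was no longer past the threshold in 8 of the 12 other analyses that tested it (limma adjusted p 0.0245 to 0.340). A fit that paired libraries across replicate numbers, chosen after seeing the data, is not among the 12, and Acoxl passed in it. The 8 included the limma fits without Control 1 (log2 fold change -2.06), without Shh-Stk11 1 and without Shh-Stk11 2. Over the 12 analyses the log2 fold change remained between -1.42 and -3.22. In whole lung, fewer cells of a type and less RNA per cell cannot be told apart.

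The promoter of Acoxl is shown because it belongs to the member that passed the test. RefSeq (GRCm38.p6) places the start of Acoxl on chromosome 2, and the 250 bases before it, at chr2:127854378-127854627 on the plus strand, read as follows, with its 2 CCAAT boxes, which lie on the other strand and so read ATTGG, in capitals.
Acoxl: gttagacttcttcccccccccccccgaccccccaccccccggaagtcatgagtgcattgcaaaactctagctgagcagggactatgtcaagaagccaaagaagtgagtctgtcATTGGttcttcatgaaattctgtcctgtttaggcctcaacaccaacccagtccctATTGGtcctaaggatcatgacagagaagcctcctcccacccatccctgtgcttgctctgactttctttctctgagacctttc
It held neither the sterol regulatory element TCACNCCAC nor the E-box CACGTG. The CCAAT box on either strand occurs in the promoter windows of 41.1% of all genes.

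Acox2, which encodes the oxidase of branched chains and of bile acid intermediates, stood at 0.798 and 1.27 FPKM in the Controls, and its Shh-Stk11 values were 0.462 and 0.308 FPKM. The groups did not overlap, and the log2 fold change was -1.21 (SE 0.364, 95% interval -2.09 to -0.34), but it did not pass the test over all genes (limma adjusted p 0.172). Acox2, like Acoxl, passed the filter of a mean of 0.5 FPKM only through the Controls. Acox3, the other branched-chain oxidase, was between 5.91 and 7.07 FPKM in the 4 libraries, and the groups overlapped.

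**Figure D2:**
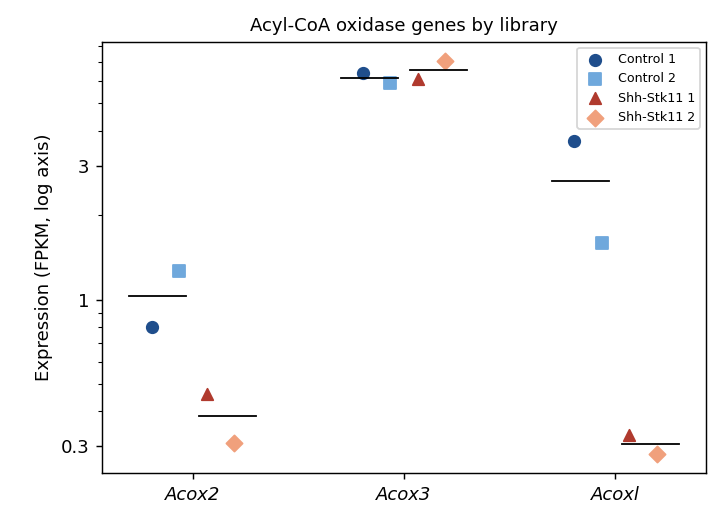
Levels of the 3 acyl-CoA oxidase members in each library, in FPKM on a log axis. Each symbol is 1 library and the short lines are means of the 2 libraries of a genotype. Acoxl and Acox2 have both Shh-Stk11 libraries below both Controls, whereas the genotypes overlap for Acox3.

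Genes of ciliated cells were also lower in the Shh-Stk11 libraries. Of 7 tested markers of these cells, Foxj1 and Tekt2 among them, 6 were past the threshold and lower, and the summed level of the 8 listed genes was 88.4 and 96.0 FPKM in the Controls and 31.5 and 28.3 FPKM in Shh-Stk11 lungs. None of the 8 was listed at 0 in every library. Club cell markers passed and were lower for 3 of 5 genes, with sums of 874 and 875 FPKM in the Controls and 678 and 741 FPKM in Shh-Stk11 lungs. Scgb1a1, the secretoglobin that defines these cells, lay on the other side, with 221 and 102 FPKM in the Controls and 312 and 471 FPKM in the Shh-Stk11 libraries without overlap (log2 fold change 1.35, limma adjusted p 0.144), and Cyp2f2 had a log2 fold change of 0.005. General epithelial markers passed the threshold in 0 of 8 cases in limma, with 3 at an unadjusted p under 0.05, all higher (sums of 1088 and 1160 FPKM against 1221 and 1385 FPKM). Of 7 red blood cell markers tested, 1 passed and was lower and 4, that one included, had an unadjusted p under 0.05 on the lower side (median -0.57, sums of 169 and 169 FPKM against 99.7 and 103 FPKM). Of 6 alveolar type 1 markers, Pdpn passed and was lower, and Pdpn, Ager and Rtkn2 had an unadjusted p under 0.05 on the lower side (median of the list -0.57, sums of 1390 and 1160 FPKM against 727 and 1085 FPKM). Aqp5 of the same list lay on the higher side, at 28.9 and 13.5 FPKM in the Controls and 41.1 and 64.8 FPKM in the Shh-Stk11 libraries, also without overlap (log2 fold change 1.38, limma adjusted p 0.131). Of 9 endothelial markers 0 passed in limma and 5 had an unadjusted p under 0.05, and all 9 had a log2 fold change below 0 (median -0.38, sums of 894 and 796 FPKM against 626 and 669 FPKM). Of 8 alveolar type 2 markers 0 passed in limma and 1, Slc34a2, had an unadjusted p under 0.05 on the lower side and 1, Sftpd, on the higher side (log2 fold changes -0.98 and 2.04). The median log2 fold change of that list was 0.05. Its summed level, 19003 and 16822 FPKM in the Controls and 9304 and 13752 FPKM in Shh-Stk11 lungs, was mostly that of the surfactant gene Sftpc (17426 and 15784 FPKM against 8005 and 12048 FPKM, limma adjusted p 0.447). The part of these cell types in the fall of Acoxl was not tested. By the smallest root mean square difference over the 4 libraries, after each gene was centred on its own mean of log2(FPKM + 0.1), the 5 genes most like Acoxl were Bex2 (0.195), Rmrp (0.380), Lrrn1 (0.422), Gm6213 (0.427) and Wdr16 (0.464), the last now named Cfap52. Few reads were behind Rmrp, about 31.4 and 17.3 in the Controls and 3.24 and 5.41 in the Shh-Stk11 libraries. For Gm6213 there were about 51.7 and 16.2 reads against 8.11 and 4.05. With 4 libraries the likeness of these genes to Acoxl is a description only.

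Enzymes of fatty acid synthesis did not pass the test. Acly, which makes cytosolic acetyl-CoA, was the highest of the 4 at 55.7 and 49.0 FPKM in the Controls and 60.2 and 58.3 FPKM in the Shh-Stk11 libraries. Its groups did not overlap, with a log2 fold change of 0.18 (95% interval -0.12 to 0.49, limma adjusted p 0.561). Fasn, fatty acid synthase, was at 41.9 FPKM in Control 1 and 21.0 in Control 2, and the Shh-Stk11 values of 35.6 and 34.8 FPKM lay between them. Acaca, the cytosolic acetyl-CoA carboxylase, was at 5.31 and 3.46 FPKM in the Controls, with 5.48 and 5.19 FPKM in the Shh-Stk11 libraries (log2 fold change 0.31, 95% interval -0.22 to 0.83, limma adjusted p 0.570). Over the alternative analyses the log2 fold change of Acaca ranged from 0.0056 to 0.61. Acacb, the carboxylase at the outer mitochondrial membrane, was low in every library, from 0.697 to 0.868 FPKM. For the fatty acid synthase gene the log2 fold change of 0.24 (95% interval -0.47 to 0.96) turned to -0.25 without Control 2.

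**Figure D3:**
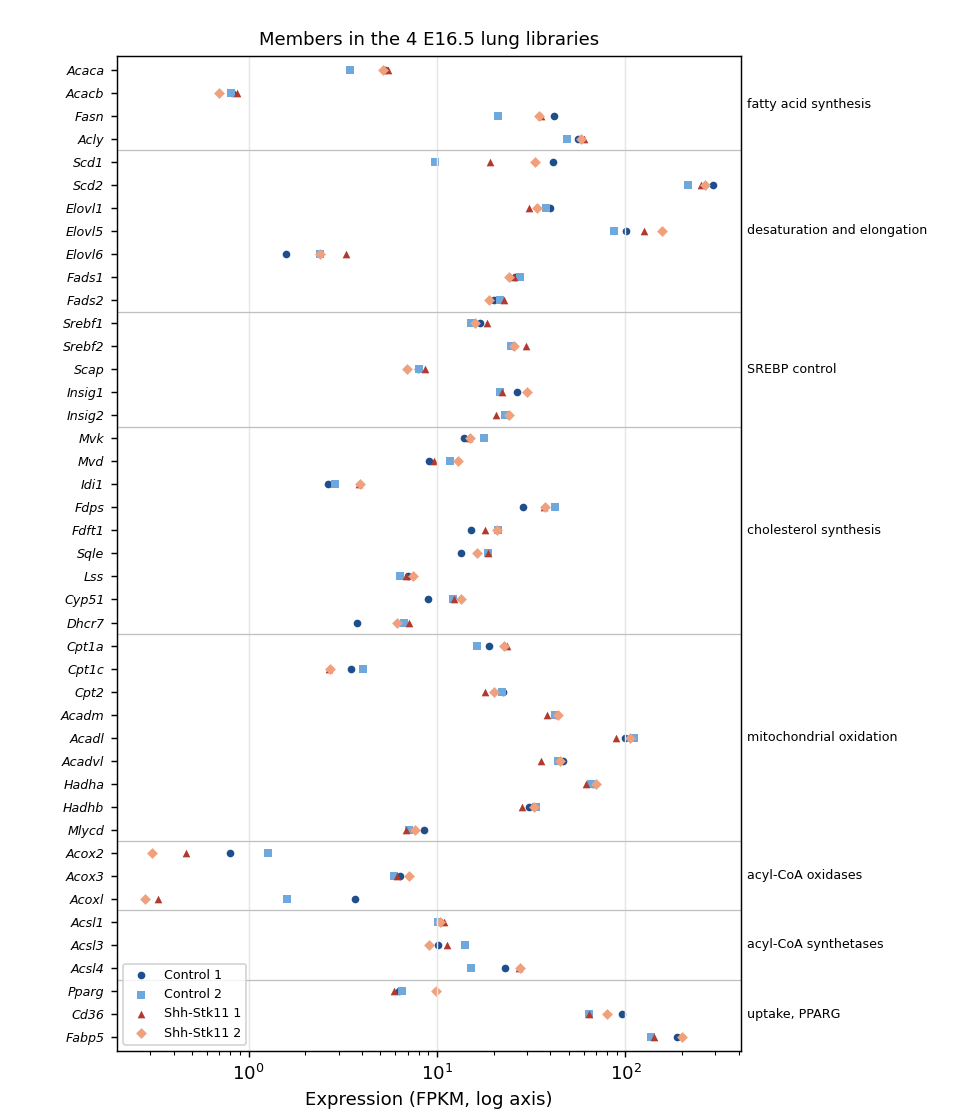
Levels of the 43 members above 0 in each of the 4 libraries, in FPKM on a log axis, ordered by role. Each symbol is 1 library. Scd2 and Fabp5 lie highest, Acox2, Acacb and Acoxl lowest, and Scd1 spreads most widely between the Controls, from 9.72 to 41.3 FPKM.

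Among desaturases and elongases, Elovl5 came nearest to the threshold on the higher side. It encodes the elongase of polyunsaturated chains. Elovl5 was at 101 and 87.0 FPKM in the Controls, with 126 and 156 FPKM in the Shh-Stk11 libraries, with no overlap. The log2 fold change was 0.58 (SE 0.16, 95% interval 0.20 to 0.96), and the limma adjusted p over all genes was 0.140. Elovl6, which extends palmitate to stearate, was at 1.58 and 2.38 FPKM in the Controls, with 3.30 and 2.40 FPKM in the Shh-Stk11 libraries (log2 fold change 0.51, limma adjusted p 0.434). The alternative analyses gave it log2 fold changes from 0.23 to 0.80. Elovl1, an elongase of very long saturated chains, was at 39.7 and 37.97 FPKM against 30.7 and 33.8 FPKM, a log2 fold change of -0.27 (limma adjusted p 0.373). Elovl5 thus formed 68.1% and 65.4% of the summed level of 7 elongase genes in the Controls and 75.7% and 78.4% in the Shh-Stk11 libraries, and Elovl1 formed 26.9% and 28.6% against 18.5% and 17.1%.

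The stearoyl-CoA desaturases introduce the first double bond into saturated chains. Scd2, the form known from embryonic and brain tissue, was the most highly expressed of all members, at 290 and 214 FPKM in the Controls and 251 and 265 FPKM in the Shh-Stk11 libraries. Scd1, the form known from liver and fat, ranged from 41.3 FPKM in Control 1 to 9.72 FPKM in Control 2, with 19.1 and 33.1 FPKM in the Shh-Stk11 libraries. The Controls stood 4.24-fold apart and enclosed both Shh-Stk11 values, so the log2 fold change of 0.32 had a 95% interval from -1.18 to 1.83 and turned to -0.71 without Control 2 and to -0.07 without Shh-Stk11 2. Scd1 and Scd2 are closely related, and how reads matching both were assigned was not given in the sources used here. Fads1 and Fads2, the delta-5 and delta-6 desaturases of polyunsaturated synthesis, were at 24.0 to 27.6 FPKM and 18.8 to 22.7 FPKM over the 4 libraries, with both Shh-Stk11 libraries below both Controls for Fads1 and overlap for Fads2.

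No regulator of the SREBP system passed the test. Srebf2, the main regulator of sterol genes, was at 25.4 and 24.6 FPKM in the Controls, with 29.8 and 25.5 FPKM in the Shh-Stk11 libraries. Its groups did not overlap, with a log2 fold change of 0.14 (95% interval -0.17 to 0.46, limma adjusted p 0.658). Srebf1, which encodes SREBP1, was lower than Srebf2 in each library, at 15.2 to 18.3 FPKM. Scap, the escort protein, ranged from 6.89 to 8.64 FPKM. Insig1, itself a sterol-responsive gene, ranged from 21.7 to 30.1 FPKM and Insig2 from 20.6 to 24.1 FPKM, and the genotypes overlapped for both. In 4 of the 5 genes of this group the interval lay between -0.5 and 0.5.

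None of the 9 sterol synthesis genes tested passed. Their log2 fold changes had a median of 0.11, and 8 were above 0, but the median was -0.076 without Control 1 and 0.37 without Control 2. Hmgcs1, the synthase that makes HMG-CoA, was listed at 0 in all 4 libraries and was not tested. In a table without counts a listed 0 need not mean absence of expression, and the 9 other sterol members averaged 3.31 to 36.3 FPKM. Idi1, which interconverts the C5 isoprenoid units, was at 2.62 and 2.86 FPKM in the Controls, with 3.85 and 3.91 FPKM in the Shh-Stk11 libraries. Here the replicates lay close together and the groups did not overlap (log2 fold change 0.49, SE 0.16, 95% interval 0.10 to 0.87), yet the limma adjusted p over all genes was 0.209. Cyp51, the lanosterol demethylase, was at 9.001 and 12.1 FPKM against 12.4 and 13.4 FPKM (log2 fold change 0.30, limma adjusted p 0.479). For Cyp51 the alternative analyses ranged from 0.084 to 0.51. Dhcr7, the last reductase of the pathway, was at 3.77 and 6.67 FPKM against 7.12 and 6.10 FPKM (log2 fold change 0.39, limma adjusted p 0.555), and its log2 fold change was -0.016 without Control 1. The groups overlapped for Dhcr7, Fdps, Fdft1, Sqle, Lss, Mvd and Mvk, of which Fdps, the farnesyl diphosphate synthase, was the most highly expressed at 28.7 to 42.2 FPKM.

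SREBP acts at sterol regulatory elements together with NF-Y, which binds CCAAT boxes, so sites with these letters are shown for sterol synthesis genes and, with the E-box, for Insig1 and Elovl5. RefSeq windows of 300 bases, from 250 before to 50 after a start, were at hand for 37 members, 7 of them sterol synthesis genes. Each of the 7 held CCAAT on 1 or the other strand, as did 25 of the 37 members (67.6%) and 41.1% of all genes. TCACNCCAC was found in 2 members, Hmgcs1, the 1 sterol gene of the 7 to hold it, and Acsl1, and in 1.44% of all genes. CACGTG, which reads the same on both strands, was found in Insig1, Dhcr7, Elovl5 and Scap, and in 8.09% of all genes. A match is a description and no evidence of binding. In the 30-base sites below, read 5′ to 3′ on the strand of the gene in GRCm38.p6, capitals mark CCAAT or its complement ATTGG, except that they mark TCACNCCAC in Hmgcs1 and CACGTG in Insig1 and Elovl5.
Cyp51 (chr5:4104709-4104738, minus strand): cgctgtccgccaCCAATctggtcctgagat
Mvk (chr5:114444207-114444236, plus strand): ttaatgtttgacCCAATctgtaaaggagcc
Dhcr7 (chr7:143830117-143830146, plus strand): tcactgccttcaCCAATcacaggacgcagc
Mvd (chr8:122443432-122443461, minus strand): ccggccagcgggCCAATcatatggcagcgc
Idi1 (chr13:8885549-8885578, plus strand): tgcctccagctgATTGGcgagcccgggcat
Hmgcs1 (chr13:119690204-119690233, plus strand): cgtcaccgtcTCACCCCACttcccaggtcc
Insig1 (chr5:28071299-28071328, plus strand): gctgggtgaggtCACGTGgctccggtggca
Elovl5 (chr9:77917192-77917221, plus strand): actgccccgagaCACGTGaaccacaggaga

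No mitochondrial oxidation gene passed the test. The carnitine palmitoyltransferase 1 genes had differences of opposite sign. Cpt1a, the main form, was at 18.8 and 16.2 FPKM in the Controls, with 23.5 and 22.8 FPKM in the Shh-Stk11 libraries (log2 fold change 0.40, SE 0.13, 95% interval 0.09 to 0.72, limma adjusted p 0.199). Cpt1c, a form known from neurons, was at 3.50 and 4.03 FPKM against 2.66 and 2.71 FPKM (log2 fold change -0.47, SE 0.167, 95% interval -0.87 to -0.07, limma adjusted p 0.245). Neither gene overlapped between the genotypes. Cpt1a formed 81.9% and 77.3% of the summed level of the 3 Cpt1 genes in the Controls and 87.1% and 87.9% in the Shh-Stk11 libraries. Cpt2, the inner membrane partner, was at 22.4 and 22.1 FPKM against 18.01 and 20.1 FPKM (log2 fold change -0.23, limma adjusted p 0.455).

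Acadl, the long-chain acyl-CoA dehydrogenase, was the highest at 88.7 to 111 FPKM, followed by Hadha, a subunit of the trifunctional protein, at 61.6 to 69.4 FPKM. Acadm, of medium chains, lay between 38.4 and 43.6 FPKM, Acadvl, of very long chains, between 35.8 and 46.5 FPKM, and Hadhb, the other trifunctional subunit, between 28.1 and 33.6 FPKM. Mlycd, which degrades malonyl-CoA, lay between 6.84 and 8.48 FPKM. The groups overlapped for all 6. The median log2 fold change of the 9 oxidation genes was -0.10, with 8 of the 9 below 0 (0.0081 without Shh-Stk11 1), and for all 6 of the genes just named Shh-Stk11 1 was the lowest library. Heart muscle, rich in these enzymes, can come along with lung tissue. The summed level of 8 heart muscle markers was 125 and 285 FPKM in the Controls and 161 and 62.6 FPKM in the Shh-Stk11 libraries. Of 7 tested markers 0 passed the threshold in limma, and each had a log2 fold change below 0 (median -0.86). The part of heart muscle in these values was not tested.

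Acyl-CoA synthetases activate fatty acids for every later step. Acsl4, which prefers arachidonate, was at 22.9 and 15.1 FPKM in the Controls, with 27.1 and 27.6 FPKM in the Shh-Stk11 libraries, without overlap (log2 fold change 0.55, SE 0.201, 95% interval 0.07 to 1.04, limma adjusted p 0.260). Its log2 fold change ranged from 0.24 to 0.85 over the alternative analyses. Acsl1 was at 10.2 to 10.9 FPKM in all libraries, with both Shh-Stk11 values narrowly above both Controls, and Acsl3 ranged from 9.03 to 14.01 FPKM with overlap. Acsl5, not a member of the set, was the highest synthetase and formed between 59.1% and 64.4% of the summed level of 5 such genes in every library. Pparg, a nuclear receptor of lipid storage, was at 6.27, 6.53 and 5.92 FPKM in Control 1, Control 2 and Shh-Stk11 1 and at 9.82 FPKM in Shh-Stk11 2. Cd36, a fatty acid receptor and transporter, was at 95.4 and 63.8 FPKM in the Controls and 64.2 and 79.4 FPKM in the Shh-Stk11 libraries, and the carrier Fabp5 was at 188 and 137 FPKM against 141 and 200 FPKM. All 3 were higher in Shh-Stk11 2 than in Shh-Stk11 1. Of adipocyte markers, Adipoq was at most 0.088 FPKM and Plin1 at most 0.0182 FPKM in any library, while Fabp4 reached 43.2 FPKM in Shh-Stk11 2 against 17.8 to 22.2 FPKM elsewhere.

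A wider list held 77 further genes of these pathways. Of the 71 tested, 0 passed the adjusted threshold in limma and 5 had an unadjusted p under 0.05, or 7.04%, against 15.2% of all genes. Their median log2 fold change was 0.005. The 5 were named after their values were seen. Fabp3, the heart-type carrier, was at 5.22 and 7.90 FPKM in the Controls, with 3.59 and 2.02 FPKM in the Shh-Stk11 libraries (log2 fold change -1.22, limma adjusted p 0.117). The summed heart muscle markers were likewise highest in Control 2 (285 FPKM) and lowest in Shh-Stk11 2 (62.6 FPKM). The part of heart muscle in the Fabp3 values was not tested. Acss2, which makes acetyl-CoA from acetate, was at 15.3 and 11.4 FPKM against 7.30 and 9.54 FPKM (log2 fold change -0.66, limma adjusted p 0.175). Slc27a6, a fatty acid transport protein, was at 91.7 and 84.5 FPKM against 62.6 and 69.4 FPKM (log2 fold change -0.42, limma adjusted p 0.184). Ebp, the sterol isomerase, was at 19.4 and 22.2 FPKM against 12.3 and 16.4 FPKM (log2 fold change -0.54, limma adjusted p 0.188). Elovl7, an elongase, was the only one of the 5 that was higher, at 4.17 and 3.88 FPKM against 5.11 and 5.26 FPKM (log2 fold change 0.36, limma adjusted p 0.311). The most highly expressed gene of each part of the list was Stard4 in sterol handling, Tecr in elongation, Etfb in mitochondrial oxidation, Ech1 in peroxisomal oxidation and Slc27a6 in uptake.

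Replicates of 1 genotype also differed by role. In the sterol synthesis genes, Control 2 was above Control 1 for 8 of 9, by a median of 0.43 on the log2 scale, where the median over all genes was 0.02. With the trend on transcript length and GC content removed, this held for 9 of 9 with a median of 0.43. The 13 further sterol genes had a median difference of 0.19, and of 0.09 with the trend removed. Fatty acid synthesis genes went the other way, with Control 2 below Control 1 for 4 of 4 and a median of -0.39, which was -0.23 with the trend removed, when 3 of 4 were lower. The Shh-Stk11 replicates differed by a median of 0.03 in the sterol genes and of -0.06 in the synthesis genes, and with the trend removed these were -0.047 and 0.039. With 2 libraries a genotype, these are descriptions of single libraries.

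**Figure D4:**
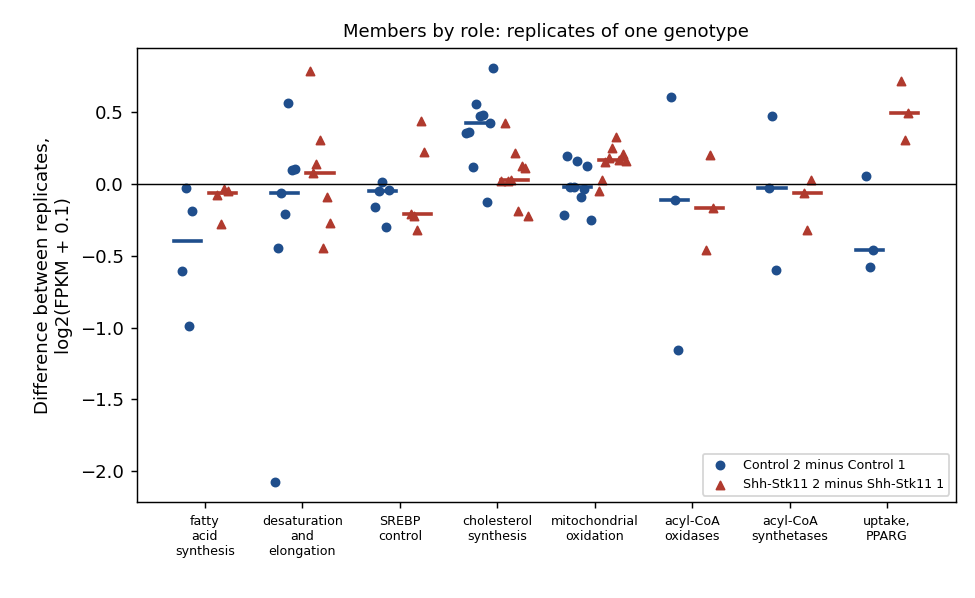
Difference between the 2 replicates of a genotype for each member, by role, on log2(FPKM + 0.1). Points are genes, with circles for Control 2 minus Control 1 and triangles for Shh-Stk11 2 minus Shh-Stk11 1, and lines are medians. Between the Controls, 8 of 9 sterol synthesis genes lie above 0 (median 0.43), 4 of 4 fatty acid synthesis genes lie below 0 (median -0.39), and Scd1 is lowest at -2.07.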

How the data were processed

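Total RNA of E16.5 lungs was sequenced as single-end 50-base reads. The authors deposited FPKM for every gene in a single table, and any scaling between libraries was not given. The submitters' processing notes name TopHat2 2.0.13, Cufflinks 2.2.1 and the builds GRCm38 and mm9, without a role, and the annotation was not given in the sources used here. FPKM are not counts, so no count model was used. Depth was estimated from whole multiples of a smallest step among 1721 genes below 0.3 FPKM (76.6% within a relative tolerance of 0.002), with 200 bases taken off the transcript length. Read numbers cover counting error only.

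Log2(FPKM + 0.1) of genes averaging 0.5 FPKM or more was fitted with limma 3.58.1 in R 4.3.3 (genotype as the only term, eBayes with trend, two-sided, Benjamini-Hochberg over all 13770 genes, threshold 0.05), after a test on simulated data. Fold changes on this scale understate those of low genes. With 2 libraries a group, p-values rest on variance shared across genes and measure the spread between these samples, whose litters are unknown. Members, lists and tests were chosen with earlier results of these data known. Named were members past the threshold or with an unadjusted p under 0.05, the highest, most risen and most fallen of each role, and others where their role is described. Symbols were matched to GENCODE M21 for length and GC content (20242 directly, 1904 through RefSeq synonyms, 410 unmatched). Whether a library was stranded was not given, so reads of overlapping genes on the opposite strand cannot be told apart. Such overlaps are annotated for Cpt1c, Idi1, Elovl1, Fdft1, Cyp51, Acss2, Fabp3, Acadvl, Srebf1 and Hadha, among others. Acsl3 and Fdps, among others, overlap genes on the same strand. Alternatives were pseudocounts of 1 and 0.01, no filter, a minimum mean of 5 FPKM, quantile and median-ratio scaling, eBayes without trend, removal of the length and GC trend, replicate number as a block and leaving out each library. Some genes of these pathways are counted in the lists but not reported here by name.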

Additional observations from a re-analysis of the deposited data

How the results depend on the processing

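With 2 libraries a genotype, the spread rests on pairs of libraries of unknown litter, and 1 library, Shh-Stk11 2, was male. The 135 higher and 178 lower calls over all genes became 0 and 1 without the filter on low values, 85 and 101 after removal of the length and GC trend, and 15 to 64 and 23 to 127 when 1 library was left out. A minimum mean of 5 FPKM left 90 lower calls. The 1 lower member, Acoxl, became 0 with a pseudocount of 1 (log2 fold change -1.42), without the filter, with quantile scaling and with the trend removed, and was not tested at a minimum mean of 5 FPKM, which left 0. Leaving out 1 library gave 0 or 1 lower members.

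The replicate number as a block gave 6 higher and 7 lower calls and 0 lower members. Libraries sharing a number did not deviate together (correlation of deviations -0.114), and the labels do not tie a number to a litter or batch. The crossed pairing, chosen after seeing the data, gave 360 higher and 315 lower calls, with 2 lower among the further pathway genes.

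Leaving out 1 library moved the median log2 fold change of the members between -0.0084 and 0.044, of fatty acid synthesis between -0.031 and 0.44, of desaturation and elongation between -0.060 and 0.23, of SREBP control between -0.040 and 0.17, of cholesterol synthesis between -0.076 and 0.37 and of mitochondrial oxidation between -0.19 and 0.0081. The median of desaturation and elongation was 0.021 at a minimum mean of 5 FPKM, 0.13 with quantile scaling, 0.092 with median-ratio scaling and 0.13 with the trend removed. The oxidase median was -0.55 with a pseudocount of 1 and 0.095 at a minimum mean of 5 FPKM, where Acox3 alone was left. The synthetase median was 0.093 with median-ratio scaling and -0.081 with the trend removed. Fasn ranged from -0.25 without Control 2 to 0.74 without Control 1, Scd1 from -0.71 without Control 2 to 1.36 without Control 1 (-0.072 without Shh-Stk11 2), and Dhcr7 from -0.016 without Control 1 to 0.79 without Control 2. Apart from the removal of a library or of low genes, the cause was not tested.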
